A study of Mus musculus with 391 samples.

Results

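Among single cells from the vessels of adult mouse brain, 55 of the 280 cells that the deposited cell table codes as microglia (MG) were high in the summed transcripts of Sall1, Adgrg1 and Slc2a5, genes known from microglia of the brain parenchyma. A cell was a member when the reads of these 3 genes summed to 200 CPM or more. CPM, counts per 1000000, expresses a gene's reads relative to all gene reads of the same cell. The members were 19.6% of the MG cells (exact Clopper-Pearson 95% interval 15.2 to 24.8%) and came from a series of 391 cells. The remaining MG cells, 225 in number, are called the other MG cells below. The third group, 111 endothelial cells coded CP-EC, is used only where a gene is shared with the vessel wall.

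Microglia are the macrophages that live within brain tissue, where they sense nucleotides with purine receptors, survey synapses and clear debris. Their identity is known to depend on TGF-beta signalling and on the zinc finger transcription factor Sall1. Border-associated macrophages, which sit along vessels, in the meninges and in the choroid plexus, share most of the myeloid genes but carry scavenger receptors such as Mrc1 and Cd163 and, in part, MHC class II, the proteins that present antigen to helper T cells.

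The cells came from brains of adult mice that were dissociated, enriched for fragments of vessels and sorted into wells, and were read with Smart-seq2, which covers whole transcripts and has no molecular identifiers. The labels name no animal, strain, sex, genotype or treatment. All MG cells therefore count as 1 sample, no test between groups was possible, and every value below describes these cells. Parentheses after a level or a ratio hold exact 95% intervals (Poisson for a level, conditional binomial for a ratio), which cover counting error only and not the spread between mice. CPM is not corrected for gene length, so levels are compared between groups of cells and not between genes.

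Both plates that hold MG cells gave members, 27 of 133 cells (20.3%) on plate A and 28 of 147 (19.0%) on plate B. Plates were told apart by the start of the column names. The members spread over all well rows in use, from 4 in row O to 10 in row J. The members held 11076982 reads in all, with 59314 in the lowest cell, 196450 at the median and 504875 in the highest. The other MG cells had a lower median, 136813 reads (39876 to 463296). With every cell thinned to 39000 reads, the median number of genes with a read was 1950 in the members and 1810 in the other MG cells. Mitochondrial transcripts took a median of 1.89% and 1.84% of reads. A gene without a read in the members could still lie at up to 0.271 CPM, and 0 of 55 cells with a read allows a share of up to 5.45% (3 cells of 55), which limits cells with a read and not cells that express the gene.

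The summed level of the 3 genes left a wide gap at the threshold. The 4 lowest members stood at 304, 352, 355 and 460 CPM, and the 4 highest of the other MG cells at 97.7, 70.8, 57.8 and 56.9 CPM. Only 3 cells lay between 100 and 400 CPM. Since the members were chosen by these genes, their levels are given as a description. Sall1, the transcription factor, ran from 0 over a median of 320.3 to 1856 CPM over the members and reached 100 CPM in 37 of them. Adgrg1, an adhesion G protein-coupled receptor, ran from 0 over a median of 716 to 2837 CPM and reached 100 CPM in 41 members. Slc2a5, the fructose transporter GLUT5, ran from 0 over a median of 450.2 to 4156 CPM and reached 100 CPM in 33 members. None of the 225 other MG cells reached 100 CPM of any of them, since their highest summed level was 97.7 CPM. The rule alone did not require this, because its threshold on the sum is higher than 100 CPM.

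The 3 genes did not appear together in every member. All 3 reached 100 CPM in 16 members, Sall1 with Adgrg1 in 11, Adgrg1 with Slc2a5 in 7 and Sall1 with Slc2a5 in 6. A single gene reached it in 15 further members, Adgrg1 in 7, Sall1 in 4 and Slc2a5 in 4. Outside the MG code the threshold was also passed by endothelial cells. Among the CP-EC cells 68 of 111 (61.3%) passed it, 67 of them by Adgrg1 alone at 200 CPM or more, which was at 860.2 CPM in that group beside 0.281 CPM of Sall1 and 5.06 CPM of Slc2a5.

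**Figure D1:**
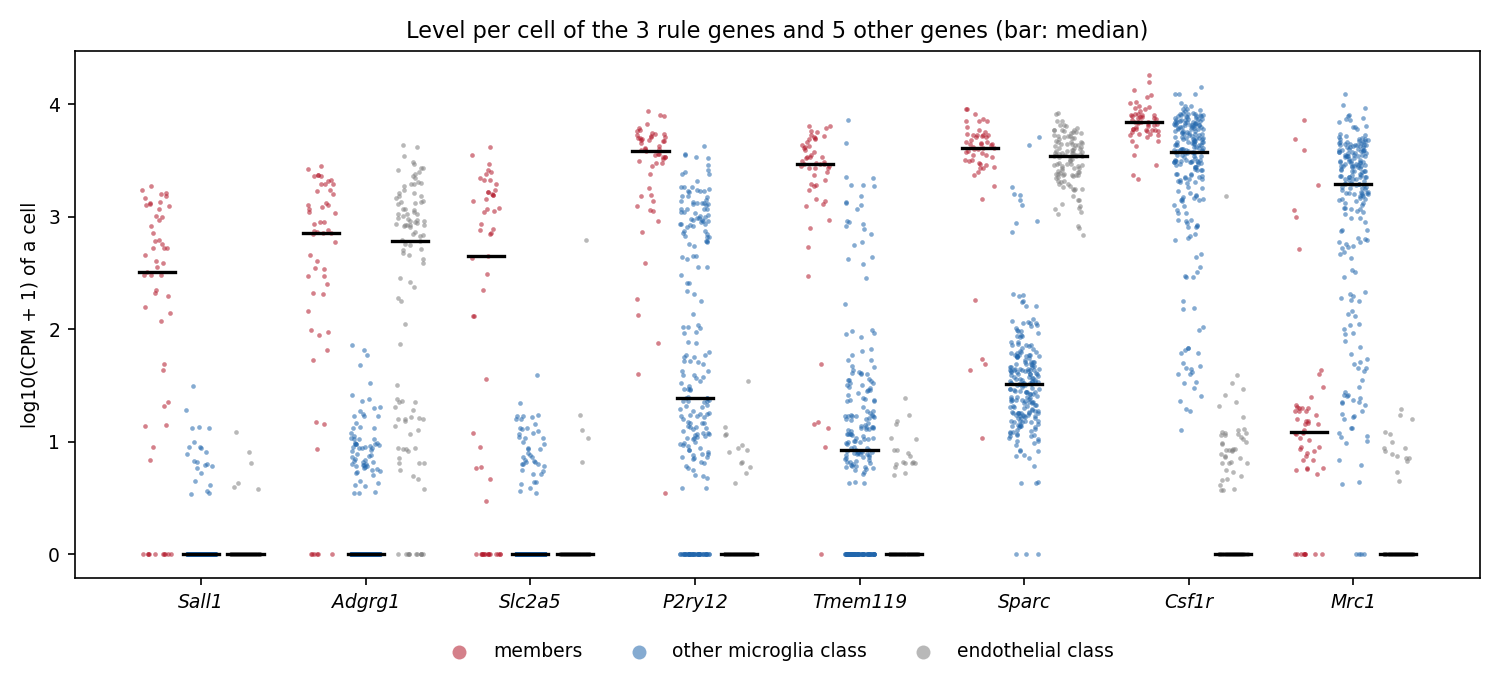
Level of 8 genes in each MG cell, as log10(CPM + 1) on the vertical axis, with columns of points for the members, the other MG cells and the CP-EC cells and a bar at each median. The members' points for P2ry12, Tmem119 and Sparc gather near 3818, 2924 and 4093 CPM, where few other MG cells lie, Csf1r is high in both groups, and Mrc1 reaches 100 CPM in 7 members and in 181 other MG cells.

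Genes of parenchymal microglia outside the rule were high in nearly all members. P2ry12, the ADP receptor that guides microglial processes to sites of injury, ran from 2.46 over a median of 3818 to 8688 CPM in the members, and from 0 over 23.5 to 4230.0 CPM in the other MG cells. The groups overlapped, since 85 other MG cells reached 100 CPM beside 52 of the 55 members. Pooled over cells, P2ry12 was 8.34-fold higher in the members (8.18 to 8.50). Tmem119, a membrane protein used as a microglial marker, had a median of 2924 CPM in the members (0 to 6385) and of 7.46 CPM in the other MG cells (0 to 7251). It reached 100 CPM in 49 members and in 25 other MG cells, and the pooled ratio was 17.4-fold (16.9 to 17.9). Both markers thus reached 100 CPM in most members. They belong to a gene list drawn up with earlier results of these data known. Their levels describe what the label of parenchymal-like microglia stands for and do not test it.

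Sparc, a secreted matrix-binding glycoprotein, had a larger pooled ratio than P2ry12 or Tmem119. Its median was 4093 CPM in the members (9.86 to 9096) and 31.5 CPM in the other MG cells (0 to 5088). It reached 100 CPM in 51 members and 26 other MG cells, and the pooled ratio was 38.8-fold (37.5 to 40.2). Sparc was also abundant in CP-EC cells, at 3373 CPM, while Tmem119 stood at 1.4 CPM and P2ry12 at 0.843 CPM there.

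Across all genes, 7863 were measured, which means at least 10 CPM and a read in at least 10% of the cells of the members or of the other MG cells. Of these, 344 (4.37%) were at least 4-fold higher in the members and 749 (9.53%) at least 4-fold lower, on the scale of log2((CPM + 1)/(CPM + 1)) that is used for all log2 ratios here. The median log2 ratio over all measured genes was -0.11. The members were sequenced more deeply. With cells thinned to 39000 reads fewer genes were measured, 6511, of which 277 were higher and 472 lower. Within plate A 542 genes (6.84%) were higher and 924 (11.7%) lower by this rule, and within plate B 676 (8.36%) and 1483 (18.3%).

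**Figure D2:**
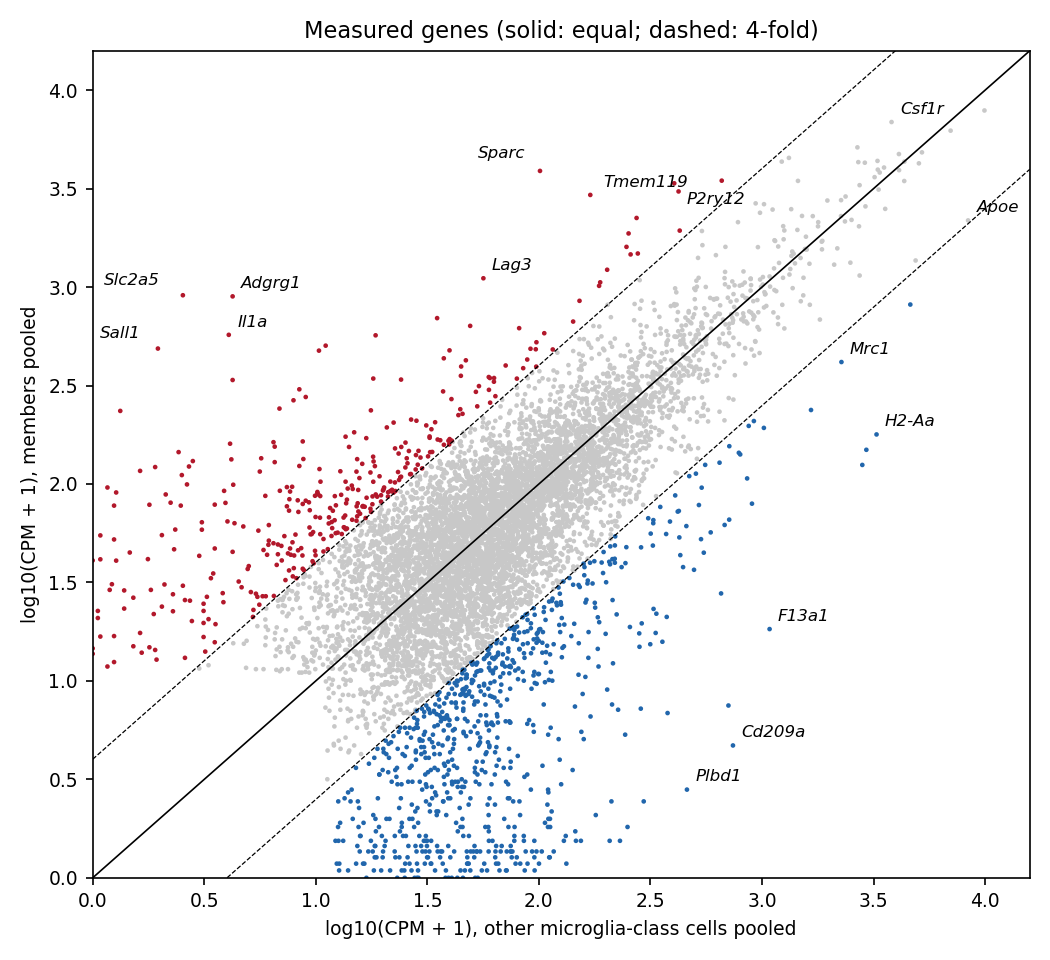
Each point is a measured gene, with its pooled level in the other MG cells on the horizontal axis and in the members on the vertical axis, both as log10(CPM + 1), and dashed lines at 4-fold. Sall1, Adgrg1 and Slc2a5, which chose the members, stand far above the upper line with Il1a, while Cd209a, Plbd1 and F13a1 stand far below the lower line and Csf1r lies near the diagonal.

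The higher genes named next had to reach 50 CPM in the members, with a read in 50% of them, and to pass 4-fold on each plate. The 15 with the largest ratios under that rule included the 3 rule genes, Tmem119 and Sparc. Il1a, which encodes the cytokine interleukin-1 alpha, had a median of 298 CPM in the members (0 to 4105) and of 0 in the other MG cells (0 to 145). It reached 100 CPM in 35 members and in 1 other MG cell, and the pooled level was 571 CPM against 3.07 CPM, a ratio of 186 (154 to 226). Lag3, an inhibitory receptor that binds MHC class II, had a median of 972 CPM in the members (0 to 5238) and of 0 in the other MG cells (0 to 3125). It reached 100 CPM in 43 and 10 cells, and was 20.0-fold higher. Serpine2, an inhibitor of serine proteases, reached 100 CPM in 38 members and 6 other MG cells and was 20.4-fold higher. Gpr84, a receptor for medium-chain fatty acids, reached it in 23 and 5 cells and was 14.6-fold higher.

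Of the remaining genes in this group, Ldhb, the B subunit of lactate dehydrogenase, had a median of 443 CPM in the members (0 to 2514) and was 32.4-fold higher (29.8 to 35.2). Mlxipl, the glucose-responsive transcription factor ChREBP, reached 100 CPM in 28 members and 2 other MG cells and was 50.8-fold higher (45.6 to 56.9). Its log2 ratio was 4.08 on plate A and 7.82 on plate B. Capn3, a calcium-dependent protease, reached 100 CPM in 17 members and none of the other MG cells, at 121 CPM against 0.906 CPM. Lrrc3, a leucine-rich repeat protein, reached it in 24 members and 2 other MG cells and was 38.2-fold higher.

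Cd34 and Ecscr, both known from endothelium, completed the group. Cd34, a sialomucin, reached 100 CPM in 20 members and 2 other MG cells, at 503 CPM against 10.1 CPM, and Ecscr in 28 members and 1 other MG cell, at 302 CPM against 7.44 CPM. The CP-EC cells had 1576 CPM of Cd34 and 530.0 CPM of Ecscr. Of other endothelial genes, Plvap was at 1.62 CPM in the members against 7837 CPM in the CP-EC cells, and Cdh5 at 0.812 CPM against 514 CPM. Summed over 7 defining endothelial genes (Cdh5, Plvap, Flt1, Kdr, Emcn, Tek and Tie1), the members ran from 0 over a median of 13.4 to 201 CPM, the other MG cells from 0 over 19.4 to 236 CPM, and the CP-EC cells from 6672 over 22084 to 34991 CPM. The 3 members at 100 CPM or more of that sum were then left out, a choice made after the data were seen. Without them, 328 of 7800 measured genes were higher and 795 lower. The full endothelial list of 14 genes, which includes Eng and Pecam1, had a summed median of 217 CPM in the members (21.5 to 4899.9) and of 112 CPM in the other MG cells (15.9 to 2221), with overlapping ranges, beside 36761 CPM (11993 to 56273) in the CP-EC cells. Of the 55 members 20 were under 100 CPM of this sum. With those 20 alone, 564 of 8131 measured genes were higher and 1458 lower. The part of endothelial RNA in these values was not tested.

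The starts of these 15 genes were searched for GAGGAA, a short purine-rich box of the type bound by PU.1 and other ETS factors, on either strand. Of the 15 genes 12 were in the RefSeq promoter table (build GRCm38.p6), while Tmem119, Lag3 and Ecscr were not matched. In the 250 bases before an annotated start, 2 of the 12 genes held the box, against 25.9% of the 27025 genes in the table and 23.3% of its 32851 starts. The starts of the 2 genes that held the box are shown for that reason. Capitals mark the box, which lies as searched in Il1a (chr2:129309973-129310222, minus strand) and as its reverse complement, TTCCTC, in Lrrc3 (chr10:77902537-77902786, minus strand). A match is a description of the letters and not a bound site.
Il1a: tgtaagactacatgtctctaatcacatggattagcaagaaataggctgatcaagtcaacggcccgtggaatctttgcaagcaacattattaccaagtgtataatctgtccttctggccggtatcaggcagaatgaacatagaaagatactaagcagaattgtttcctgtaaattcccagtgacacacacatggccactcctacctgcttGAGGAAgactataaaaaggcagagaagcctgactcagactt
Lrrc3: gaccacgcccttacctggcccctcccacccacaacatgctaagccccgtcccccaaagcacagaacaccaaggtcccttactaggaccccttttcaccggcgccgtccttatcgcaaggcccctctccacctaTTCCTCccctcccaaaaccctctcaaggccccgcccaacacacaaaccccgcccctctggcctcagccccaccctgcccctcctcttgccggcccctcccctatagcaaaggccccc

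Over all measured genes 4.37% were higher and 9.53% lower, and a list's count near these shares is no result about the list. Of the 19 measured genes in a list for parenchymal microglia, 12 were at least 4-fold higher in the members, 0 lower and 7 between, with a median log2 ratio of 2.86 beside -0.11 over all genes. The median was 2.90 on plate A and 2.76 on plate B. The list was drawn up with earlier results of these data known. Siglech, a sialic acid-binding lectin, had a median of 2177 CPM in the members and 11.0 CPM in the other MG cells and was 8.21-fold higher. Selplg, the selectin ligand PSGL-1, had medians of 4098 CPM and 98.3 CPM and was 5.27-fold higher. Olfml3, a secreted olfactomedin-like protein named here after its values were seen, had medians of 3069 CPM and 15.1 CPM and was 7.25-fold higher.

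Genes shared by all microglia and macrophages differed less. Of the 20 genes in the microglia core list 1 was 4-fold higher, 0 were lower and 19 lay between, with a median log2 ratio of 0.24. Csf1r, the receptor for the survival factor Csf1, was above 100 CPM in all 55 members (2147 to 18289.5 CPM, median 6881) and had a median of 3796 CPM in the other MG cells. C1qb, a chain of complement C1q, had medians of 5138 CPM and 5098 CPM. Cx3cr1, the receptor for neuronal fractalkine, had medians of 5037 CPM (9.86 to 8411) and 470.2 CPM (0 to 8346), and its log2 ratio was 1.78. The gene past 4-fold was Itgam (CD11b), at 226 CPM against 44.5 CPM, which fell under 4-fold (log2 1.56) with the 20 members under 100 CPM of the endothelial list. Lyz2, lysozyme, went the other way, with medians of 1005 CPM and 5979 CPM.

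Among transcription factors, 3 of 29 measured genes were 4-fold higher, 1 was lower and 25 lay between, with a median log2 ratio of 0.49. One of the higher genes is Sall1 itself, which leaves 2 others beside 4.37% higher over all genes. Sall3, its paralogue, named after its values were seen, was at 336 CPM in the members, reached 100 CPM in only 11 of them and 1 other MG cell, and was 104-fold higher (86.4 to 126). Smad7, the inhibitory SMAD induced by TGF-beta, was at 161 CPM against 24.2 CPM, with 17 members and 8 other MG cells at 100 CPM. Bhlhe40, a basic helix-loop-helix repressor, did not exceed 16.9 CPM in any member, while 26 other MG cells reached 100 CPM and the highest 4739 CPM. The lineage factors Spi1 (PU.1), at 874 CPM against 856 CPM, and Irf8, at 1067 CPM against 735 CPM, were within 1.5-fold.

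The TGF-beta axis had 2 of 14 measured genes 4-fold higher, 0 lower and 12 between, with a median log2 ratio of 0.57, beside 4.37% and 9.53% over all genes. The receptor chain Tgfbr1 had medians of 373 CPM and 4.06 CPM and a pooled ratio of 3.63, and its partner Tgfbr2 had medians of 421 CPM and 180.0 CPM and a ratio of 1.43. Itgb5, the beta chain of an integrin that can release latent TGF-beta, had medians of 766 CPM and 7.45 CPM and a ratio of 3.84. Nrros, which anchors latent TGF-beta1 on microglia, was at 685 CPM against 913 CPM. The 2 genes past 4-fold were Smad7 and Eng, the co-receptor endoglin, which reached 100 CPM in 20 members at 299.6 CPM pooled against 58.7 CPM and stood at 4819 CPM in the CP-EC cells.

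Purine receptor genes did not all go the same way. P2ry13, a second ADP receptor, had medians of 1949.5 CPM and 10.1 CPM and was 4.53-fold higher (4.44 to 4.63), though under 4-fold by the mean of per-cell CPM (log2 1.93). Adora3, the adenosine A3 receptor, reached 100 CPM in 17 members and none of the other MG cells, at 116 CPM against 0.631 CPM. Entpd1 (CD39), which breaks down extracellular ATP, was 2.04-fold higher. The receptors P2ry6, for UDP, and P2rx7, for ATP, were lower by less than 4-fold, at 481 CPM against 896 CPM and 377 CPM against 566 CPM. In all, 3 of 9 measured genes of this list were 4-fold higher, 1 lower and 5 between, beside 4.37% higher and 9.53% lower over all genes. The median log2 ratio of the list was -0.58. The list's median was 0.65 on plate A and -0.31 on plate B, so its direction differed by plate. The lower one, Enpp2, rested on 2 other MG cells at 100 CPM or more and had the same log2 ratio of 0.65 on plate A.

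Among ion channels and transporters 2 of 17 were 4-fold higher, 3 lower and 12 between (median log2 ratio 0.98), beside 4.37% and 9.53% over all genes. Besides Slc2a5, a gene of the rule, the higher gene was Slc1a3, the glutamate transporter GLAST, at 240.5 CPM against 5.87 CPM, with 16 members and 3 other MG cells at 100 CPM. Of the 9 astrocyte markers, 3 were measured (Slc1a3, Slc1a2 and Aldoc) and 3 had 0 reads in the members (Gfap, Aqp4 and Gjb6), and the part of astrocyte RNA was not tested. Kcnn4, a calcium-activated potassium channel, had 0 members and 16 other MG cells at 100 CPM, at 0.0903 CPM against 85.4 CPM. Of 17 genes for sugar transport and glycolysis, 2 were 4-fold higher (Slc2a5 and Ldhb), 1 was lower and 14 lay between, with a median of 0.45. The lower one was the phosphofructokinase Pfkp, at 0.903 CPM against 105 CPM. Aldoa, an aldolase, was at 560.2 CPM against 404 CPM. Many glycolytic genes have near-identical pseudogenes, so their counts are uncertain. Of 17 genes of oxidative phosphorylation 0 passed 4-fold, and their median was -0.16.

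Adhesion genes went both ways. Of 19 integrin and adhesion genes 4 were 4-fold higher, 3 lower and 12 between, with a median log2 ratio of 1.11, beside the same shares of 4.37% and 9.53%. Cd9, a tetraspanin, had medians of 1064 CPM and 6.99 CPM, was 5.64-fold higher and reached 100 CPM in 48 members and 49 other MG cells. Selplg and Itgam have been given above, and Jam2, a junctional molecule, reached 100 CPM in 10 members and 1 other MG cell and was under 4-fold on plate B (log2 1.49). Itgb7, the beta chain of integrins of circulating leukocytes, had 0 members and 23 other MG cells at 100 CPM, at 0.542 CPM against 207 CPM. Of 4 measured adhesion G protein-coupled receptors, Adgrg1 was higher, Adgre5 (CD97) lower at 4.06 CPM against 158 CPM, and Adgre1 (F4/80) close at 1157 CPM against 1326 CPM.

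Most genes of border-associated macrophages were low in most members. Of 16 measured genes 13 were at least 4-fold lower in the members, 0 higher and 3 between, with a median log2 ratio of -3.48 (-4.04 on plate A and -2.91 on plate B). F13a1, coagulation factor XIII A, had a median of 4.73 CPM in the members (0 to 559.8) and of 492 CPM in the other MG cells (0 to 8735). It reached 100 CPM in 2 members and 127 other MG cells and was 62.3-fold lower (54.1 to 72.2). Cd163, the haemoglobin scavenger receptor, reached it in 1 member and 88 other MG cells and was 24.1-fold lower. Lyve1, the hyaluronan receptor, reached it in none of the members and in 25 other MG cells. Mrc1, the mannose receptor, had a median of 11.2 CPM in the members (0 to 7189) and of 1963 CPM in the other MG cells (0 to 12414). Its log2 ratio was -2.45, and on plate B it was just under 4-fold. With the 7 members at 100 CPM or more of Mrc1 left out, a choice made on a gene of the list, the median over the list was -6.46. Stab1, also of the list, was not confined to those 7, and ran from 0 to 6582 CPM over the members. Wells I17 and L16 of plate A and I10 of plate B held 2464, 1103 and 1566 CPM of Stab1, with Mrc1 under 100 CPM.

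Markers of monocytes and dendritic cells were low as well. Of 11 measured genes 9 were 4-fold lower, 0 higher and 2 between, with a median of -5.27. Cd209a, a lectin of dendritic cells, had 0 members and 43 other MG cells at 100 CPM, at 3.70 CPM against 740.0 CPM. Ccr2, the receptor that brings monocytes out of the marrow, had 1 and 42, at 5.87 CPM against 376 CPM. Vim, the intermediate filament vimentin, did not exceed 44.0 CPM in any member, and 53 other MG cells reached 100 CPM. Plbd1, a phospholipase-like lysosomal protein, did not exceed 16.0 CPM in a member and was 255-fold lower (165 to 417). The remaining genes with the smallest ratios, Ccn1, Crip1, Mgl2, Ifi203, Wwp1, Ahnak and Ccl24, were 20.1- to 56.0-fold lower.

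MHC class II genes were low in most members and in part of the other MG cells. Of 12 genes for MHC class II and costimulation 7 were 4-fold lower, 0 higher and 5 between, with a median of -2.62. H2-Aa, the alpha chain of I-A, had a median of 50.9 CPM in the members (7.39 to 3074) and of 229.8 CPM in the other MG cells (0 to 18951). It reached 100 CPM in 11 members and 151 other MG cells, and was 18.4-fold lower pooled. Ciita, the transactivator of these genes, did not exceed 42.3 CPM in any member and reached 100 CPM in 24 other MG cells. Of the costimulatory genes, Cd86 and Cd83 lay within 1.5-fold, while Cd40 was lower, at 0.993 CPM in the members against 44.4 CPM.

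The other MG cells were divided at a summed level of 2000 CPM for H2-Aa, H2-Ab1, H2-Eb1 and Cd74 into 110 MHC class II-low and 115 MHC class II-high cells, which are ranges of a score and not cell types. H2-Aa stood at 177 CPM in the members, 84.2 CPM in the MHC class II-low and 5763 CPM in the MHC class II-high cells. The members' pooled level lies above their median given above. They were not divided, but some passed the same cut of 2000 CPM. On plate A these were L5 and K6, with sums of 12182 and 4692 CPM. On plate B these were J15, K3, I14 and J8, with sums of 12070, 4975, 3158 and 2694 CPM. Against the MHC class II-low cells the median of the MHC class II list was 0.60 and that of the monocyte and dendritic cell list -0.80. Against the MHC class II-high cells these medians were -3.36 and -5.69. The parenchymal list did not divide in this way, with medians of 2.71 and 2.89, and the border-associated list stood at -3.83 and -2.39. Bhlhe40 was at 2.93 CPM in the MHC class II-low and 524 CPM in the MHC class II-high cells, so the members' 1.44 CPM was close to the former.

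Against the MHC class II-low cells 627 of 7758 measured genes were 4-fold higher in the members (8.08%) and 760 lower (9.80%). Against the MHC class II-high cells 504 of 7975 were higher (6.32%) and 835 lower (10.5%). Both comparisons share the members. The genes higher in both numbered 233, which is 37.2% of the first list and 46.2% of the second. The genes lower in both numbered 355, 46.7% and 42.5% of the lists.

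**Figure D3:**
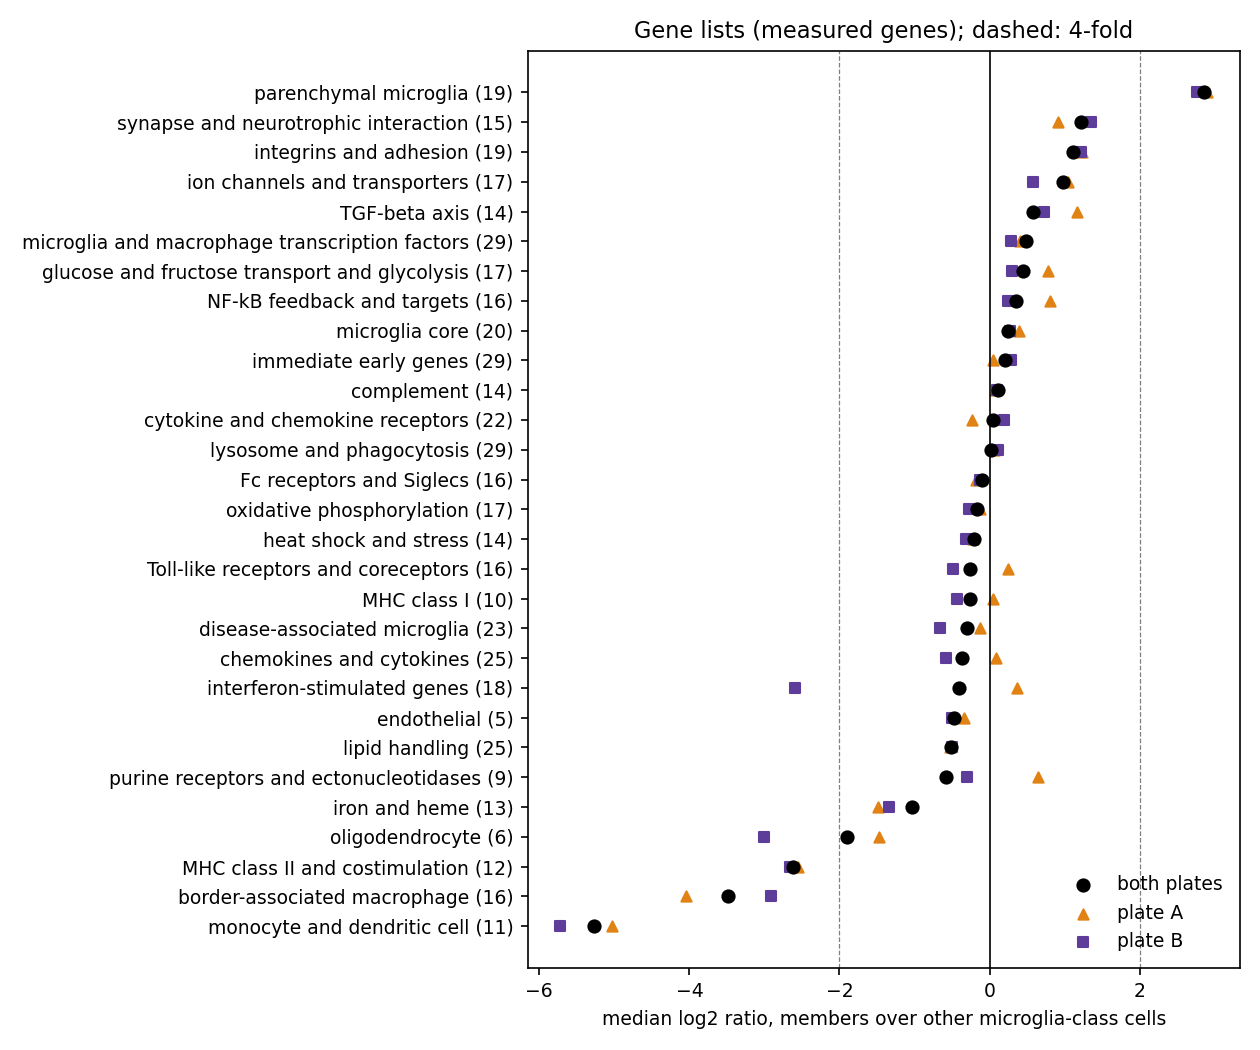
Median log2 ratio, members over other MG cells, of each gene list with at least 5 measured genes (their number in parentheses), with a circle for both plates together, a triangle for plate A, a square for plate B and dashed lines at 4-fold. The parenchymal list lies beyond the upper line at 2.86, the border-associated and the monocyte and dendritic cell lists lie beyond the lower line at -3.48 and -5.27, and the core list lies at 0.24.

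Among chemokines and cytokines 2 of 25 genes were 4-fold higher, 7 lower and 16 between, with a median log2 ratio of -0.36, where 4.37% and 9.53% of all genes passed. Il1a was joined by Csf1, at 81.2 CPM against 8.02 CPM, which rested on 5 members at 100 CPM. Ccl4, a chemokine, had medians of 1543 CPM (4.3 to 6514) and 37.4 CPM (0 to 6545), and its pooled ratio was 2.34. Ccl3 was at 919.9 CPM against 744 CPM. Igf1, a growth factor, was 18.5-fold lower, with 3 members and 87 other MG cells at 100 CPM. Of 22 cytokine and chemokine receptors 0 were 4-fold higher, 4 lower and 18 between (median 0.04). Csf3r, the receptor for granulocyte colony-stimulating factor, was at 463 CPM against 120.0 CPM, in cells where 7 of 9 neutrophil genes, S100a8 and S100a9 among them, had 0 reads.

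Of 16 Toll-like receptor genes 1 was 4-fold higher, 2 lower and 13 between (median -0.26), beside 4.37% higher and 9.53% lower over all genes. Tlr3, the sensor of double-stranded RNA, reached 100 CPM in 10 members and 6 other MG cells, and Tlr5, the flagellin receptor, in 1 member and 18 other MG cells. With a pseudocount of 10 CPM neither passed 4-fold (log2 1.77 and -1.88). Of 16 Fc receptor and Siglec genes 2 were higher, 1 lower and 13 between (median -0.10), with Fcgrt, the neonatal Fc receptor, at 196 CPM against 871 CPM and under 4-fold on plate B (log2 -1.83). Of 14 complement genes 2 were higher, 2 lower and 10 between (median 0.11). The receptor C5ar2 was higher, on 6 members at 100 CPM, but not past 4-fold on plate A (log2 1.43).

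Immediate early genes, which are known to respond to tissue dissociation, were abundant in both groups. Fos had a median of 4706 CPM in the members (40.4 to 11349) and of 4604 CPM in the other MG cells (18.3 to 19045), and its log2 ratio was 0.00 after rounding. Of 29 genes 0 were 4-fold higher, 2 lower and 27 between (median 0.20). The lower ones include Fosl2, at 4.51 CPM against 154 CPM. Of 16 NF-kB feedback and target genes 1 was higher, 2 lower and 13 between (median 0.35). Of 14 heat shock and stress genes 0 passed 4-fold (median -0.21), and the inducible Hspa1a was at 615 CPM against 1258 CPM.

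Apoe, the main lipid carrier of the brain, had a median of 818 CPM in the members (125 to 23539) and of 11207 CPM in the other MG cells (200.5 to 29575), and was 3.85-fold lower pooled (3.80 to 3.90). In the lipid list 1 of 25 genes was 4-fold higher, 3 lower and 21 between (median -0.51), where 4.37% and 9.53% of all genes passed. The higher one was Ptgs1 (COX-1), with medians of 1587 CPM and 5.83 CPM and a ratio of 6.50. The lower ones include Pltp, a phospholipid transfer protein, at 155 CPM against 713 CPM and under 4-fold on plate B (log2 -1.94). In the iron and heme list 0 of 13 were higher, 4 lower and 9 between (median -1.04), with the iron exporter Slc40a1 at 153 CPM against 465 CPM.

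Lysosomal genes were near the overall median, with 1 of 29 higher, 1 lower and 27 between (median 0.02). Ctsd, cathepsin D, was above 100 CPM in all members, with medians of 3701 CPM and 1328 CPM, and Ctsb had medians of 3721 CPM and 6029 CPM. The list of genes known to increase in disease-associated microglia had 2 of 23 higher, 5 lower and 16 between (median -0.30). Of its genes, Trem2, a lipid-sensing receptor, had medians of 2247 CPM and 629.5 CPM, while Apoe and Igf1, given above, were lower in the members. In the synapse interaction list 2 of 15 were higher, 1 lower and 12 between (median 1.22). One was P2ry12 and the other Plxdc2, with medians of 1049 CPM and 0. Of 10 MHC class I genes 0 passed 4-fold (median -0.26). Of 18 interferon-stimulated genes 1 was higher, 2 lower and 15 between (median -0.41), but the median was 0.36 on plate A and -2.60 on plate B. Ifit1, the higher one, rested on 2 members and had a log2 ratio of 2.48 on plate A and -3.65 on plate B.

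Marker lists of other cell types gave these counts. The endothelial list had 2 of 5 measured genes higher (Eng and Pecam1), 1 lower and 2 between, with a median of -0.47, and Pecam1 rested on 5 members. The oligodendrocyte list had 0 of 6 higher, 3 lower and 3 between (median -1.90). The neuron list had no measured gene, the mural and fibroblast lists had 1 each (Vtn and Dcn), both between. The lymphocyte list had 2, Cd4, which was lower but not past 4-fold on plate A (log2 -1.46), and Cd79b, at 118 CPM against 73.6 CPM. The astrocyte list had 1 of 3 higher, Slc1a3, with a median of -0.51 (0.49 on plate A and 0.24 on plate B). Its sum ran from 0 over a median of 3.24 to 4677 CPM in the members and from 0 over 0 to 1715 CPM in the other MG cells. Of 3 cell cycle genes measured 1 was lower, and Mki67 and Cdk1 had 0 reads in the members. Of 4 measured sex chromosome genes 0 passed 4-fold. A read of a Y-linked gene was found in 35 members and 137 other MG cells, a read of Xist in 2 and 20, and 10 CPM of Xist in 0 and 9.

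Between members, some genes varied little and others widely, and the same was not computed for the other MG cells. Over 1060 genes at 100 CPM or more with a read in at least 50% of the members, the lowest coefficients of variation between cells were those of Tmsb4x (0.30), Actb (0.33), C1qc (0.33) and Lgmn (0.35), followed by C1qb, Laptm5, Tyrobp and Itm2b (up to 0.38). Lgmn, the lysosomal protease legumain, ran from 1878 to 12004 CPM. Sparc (0.51), P2ry12 (0.59) and Tmem119 (0.62) varied little more, whereas the rule genes Sall1 (1.06), Adgrg1 (0.94) and Slc2a5 (1.17) and Il1a (1.33) were found in fewer cells. The highest coefficients were those of Ap1b1 (3.86), Ms4a7 (3.42), Mrc1 (3.35), Pltp (3.34), Cebpz (3.32), Dab2 (3.23), Smarca2 (3.22) and Abcd2 (3.19). Mrc1, Dab2, Ms4a7 and Pltp were each carried by 5 to 7 members. Among the genes that took most reads in the members were Rn18s-rs5, Csf1r, Lgmn, Actb, C1qb, Cx3cr1, Cst3, Fos and Ctss.

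P2ry12, Tmem119, Siglech, Sparc and Olfml3 were then counted cell by cell at 1000 CPM, a set chosen after the values were seen. All 5 reached it in 36 members, 4 in 8, 3 in 4, 2 in 5 and none in 2. Among the other MG cells none reached it in 140, 1 in 50, 2 in 30, 3 in 3, 4 in 1 and all 5 in 1. The members with none were at well J15 and well N5 of plate B. They met the rule through Adgrg1 (460 CPM) and Sall1 (522 CPM) and held 7189 and 4913 CPM of Mrc1.

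**Figure D4:**
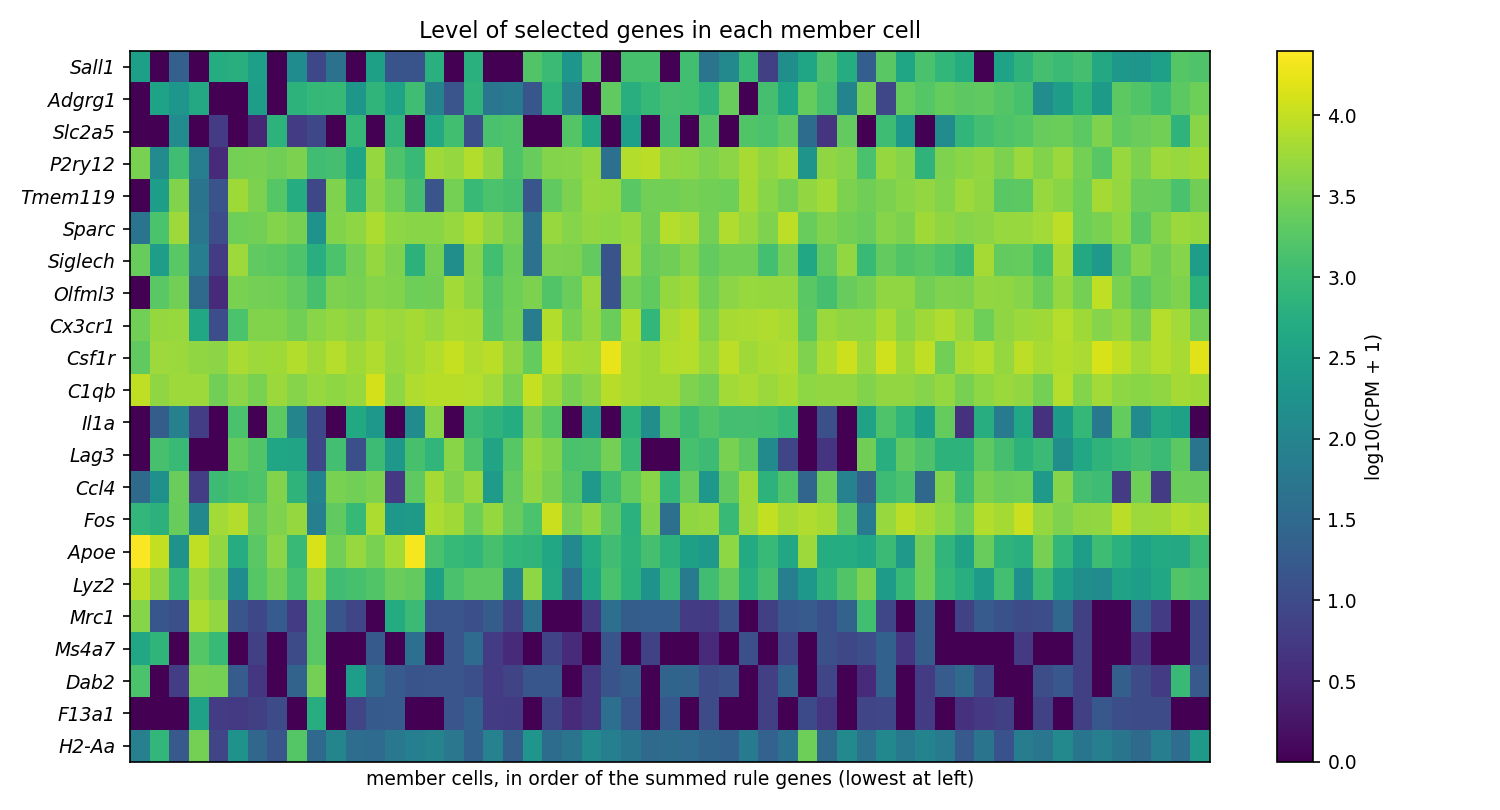
Levels of selected genes (rows) in the 55 members (columns, in order of the summed rule genes from the left), coloured by log10(CPM + 1) from dark (0) to bright. The rows of Csf1r and C1qb are bright in every member, those of Sall1, Adgrg1, Slc2a5 and Il1a are broken by cells at 0, and the Mrc1 row is bright in few members, among them 3 of the 5 with the lowest summed level.

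Mrc1 reached 100 CPM in 7 of 55 members (12.7%, exact Clopper-Pearson 95% interval 5.27 to 24.5%). Besides J15 and N5 these were O4, L17, I23 and J17 of plate A, at 3926, 1900.2, 987 and 516 CPM, and J8 of plate B, at 1155 CPM. Well O4 was also the member nearest to the threshold, with 304 CPM of Sall1, and held 3253 CPM of P2ry12 and 23539 CPM of Apoe. Wells J8, I23 and J17 held 2495, 4093 and 4483 CPM of Sparc. No doublet caller was run, and whether a well held more than 1 cell was not tested.

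Sparc and Mrc1 were seldom both at 1000 CPM in a cell. In the members 49 cells had Sparc alone, 4 Mrc1 alone, 1 both and 1 neither. In the other MG cells 145 had Mrc1 alone, 3 Sparc alone, 4 both and 73 neither. P2ry12 reached 1000 CPM with Mrc1 in 3 members and 32 other MG cells, and alone in 44 members and 9 other MG cells. The member with neither Sparc nor Mrc1, at well M13 of plate B, held 1615 CPM of Sall1 and 2387 CPM of P2ry12.

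**Figure D5:**
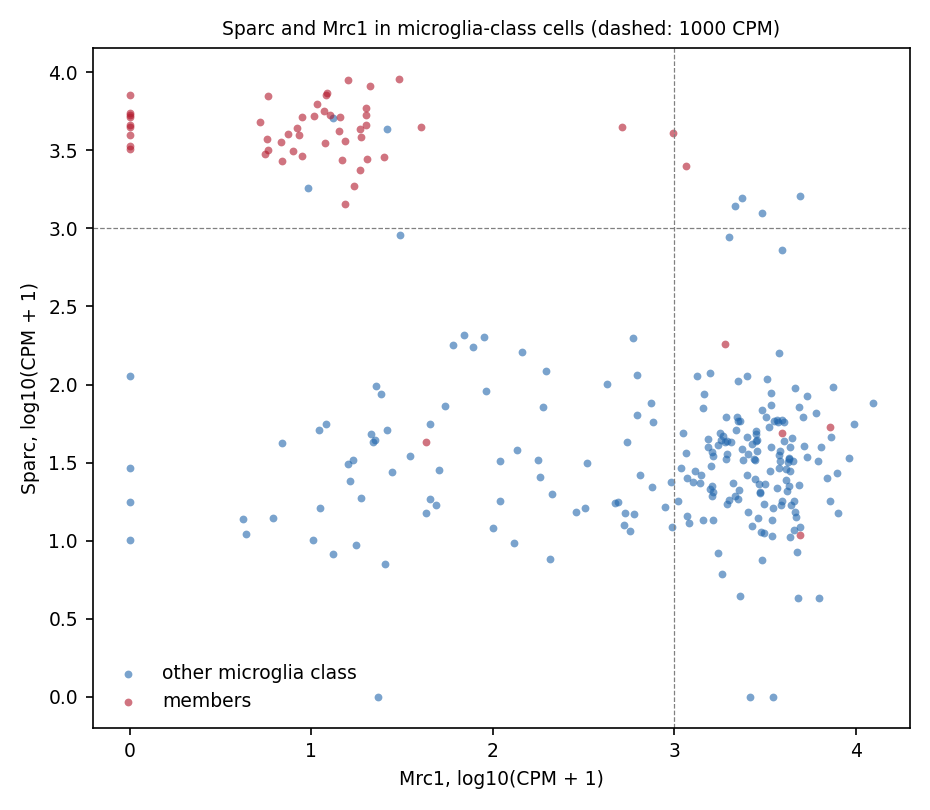
Sparc on the vertical axis against Mrc1 on the horizontal axis, both as log10(CPM + 1), with a point for each MG cell and dashed lines at 1000 CPM. The members lie in the upper left, where 49 of 55 have Sparc without Mrc1, and the other MG cells lie to the right and below, with 4 of 225 in the upper right.

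Stress and interferon genes set single members apart. The summed immediate early genes ran from 570 over a median of 41896 to 78833 CPM in the members, and 2 members were under 5000 CPM, J15 of plate B and L17 of plate A, both among the Mrc1-carrying cells. In the other MG cells 21 were under it. The summed interferon-stimulated genes had a median of 314 CPM in the members and 2073 CPM in the other MG cells. They exceeded 5000 CPM in 2 members, both on plate A, and in 33 other MG cells, and the highest member reached 19741 CPM.

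Within the members the summed lists were partly related, given as Spearman's rho over 55 cells of 1 sample that share their library depth. The parenchymal list was inversely related to the MHC class I list (rho -0.47, -0.58 on plate A and -0.31 on plate B) and to the interferon-stimulated list (-0.43, -0.48 and -0.37). The latter lists were positively related (0.44, 0.60 and 0.31). Immediate early genes and NF-kB targets had a rho of 0.29, with shared genes left out. The parenchymal list was inversely related to the reads of a cell as well (-0.42), and the part of depth in these relations was not tested.

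A few cells outside the rule looked like members. Well N22 of plate B had a summed level of 24.5 CPM for the rule genes, but 5088 CPM of Sparc, 4512 CPM of Tmem119 and 4230.0 CPM of P2ry12, with 12.3 CPM of Mrc1 and 61.3 CPM of H2-Aa. Well J3 of plate B had 0 reads of the rule genes, 4359 CPM of Sparc and 1857 CPM of Tmem119. The other three with 3 of the 5 genes, K20 and O2 of plate A and I16 of plate B, had 894 to 7716 CPM of H2-Aa, and O2 and I16 had over 2000 CPM of Mrc1.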

How the data were processed

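The labels' protocols describe adult mouse brain dissociated to vascular fragments and single cells, with SMART-seq2 libraries. The authors deposited whole-number read counts for 56941 genes in 391 cells and a table of cell classes. Reads were counted against build GRCm39 with tools that the submitters' processing notes list as featureCounts, Subread 1.4.6-p5 and SAMtools 1.16.1. For the aligner, the annotation, the strand setting and duplicates, the choice made is not given in the sources used here, so overlapping genes and near-identical copies (MHC genes, heat shock genes, pseudogenes) are uncertain.

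Cell names of both tables were matched (0 columns unmatched, 0 identical), no cell was filtered, and the reads of each group of cells were pooled and scaled to CPM. Ratios used a pseudocount of 1 CPM on the log2 scale. Alternatives and a TMM scaling (edgeR 4.0.16) are given in the closing section. No sample label ties cells to an animal, so no test was run. The members, the naming rule and the 39 gene lists were chosen with earlier results of these data known. The rule named the marker genes, the 15 largest and 15 smallest ratios among genes at 50 CPM and read in 50% of cells that passed 4-fold on each plate, up to 5 abundant and the most extreme genes of each list, the 8 steadiest and 8 most variable genes, and the 10 most abundant. Promoters came from RefSeq (GRCm38.p6). No coordinates of the files' build were used.

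Reads were simulated for this comparison with counting error only (56941 genes, 200 changed). Of the genes changed 8-fold 100% passed 4-fold, of those changed 2-fold 0%, and of 9018 unchanged genes 0. For 93.5% of the changed genes, the simulated ratio lay inside its interval. The spread between cells was not simulated, and in the members coefficients of variation ran from 0.30 to 3.86. These shares therefore do not show how often a gene carried by few cells passes 4-fold. Python 3.11.15, numpy 2.4.6, scipy 1.17.1 and pandas 2.3.3 were used. Some genes that the rule names are left out of the text.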

Additional observations from a re-analysis of the deposited data

How the results depend on the processing

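A threshold of 100 CPM kept the same share, 19.6% with 55 members, and a threshold of 400 CPM left 52 members. The number of measured genes changed with most settings and is given with each count. The counts of genes 4-fold higher and lower were 344 and 749 of 7863. With a pseudocount of 10 CPM they were 174 and 366 of the same 7863. With genes measured at 1 CPM they were 958 and 2363 of 14300. On plate A 542 of 7927 genes were higher, and on plate B the counts were 676 and 1483 of 8089. Only lower genes moved past 1.5 times with a minimum of 50 CPM (411 of 5235) and with thinned cells (472 of 6511). With the 20 members under 100 CPM of the endothelial list the counts were 564 and 1458 of 8131. At 2-fold, with all members, they were 1183 and 1783 of 7863. TMM scaling gave 379 and 713 of 7867. In that set of 20, which by its construction leaves out cells with Eng or Pecam1, Eng was at -2.92, Pecam1 at -2.52, Csf1 at -1.22 and Ifit1 at -4.43 (log2). Ifit1 was at -3.65 on plate B. Enpp2, the only measured choroid plexus gene, was at 0.65 on plate A, which is also that list's median there. Why Ifit1, Csf1 and Enpp2 reversed was not tested. The genes named for the 15 largest and 15 smallest ratios had to pass 4-fold on each plate, so the plate alternatives could not remove them. Sall1, Adgrg1 and Slc2a5 were higher by the choice of the members. Of 82 named genes past 4-fold, with these included, 60 stayed past it the same way under every alternative run and 77 kept their direction. The others were C5ar2, Cd4, Cd93, Cenpa, Cldn11, Clec10a, Csf1, Ctsf, Egfl7, Eng, Enpp2, Fcgrt, Ifit1, Itgam, Jam2, Mobp, Mrc1, P2ry13, Pecam1, Pltp, Tlr3 and Tlr5. No paired analysis was possible because no label gives the cells an animal or replicate shared between groups. Both groups lie on both plates, which gave the within-plate values but no replicate to test. Each group is 1 sample, so none could be left out. Depth limits what can be said of genes with few reads per cell.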
